A study of Mus musculus with 3 samples.

Results

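The actin-related and perinuclear theca genes described here are Actl7a, Actl7b, Actl9, Actrt1, Actrt2, Actrt3, Capza3, Cylc1, Cylc2 and Ccin. They were chosen by symbol, 10 of the 32285 genes counted in the series, and all 10 were found. Each was followed through spermatid development, library by library, in dissociated testis of wildtype mice and of conditional Tex10 knockout mice.

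The perinuclear theca is the rigid protein shell around the nucleus of the sperm head. Its front part lies between the nuclear envelope and the acrosome and holds the acrosome in place, and its rear part forms the postacrosomal calyx. It is built while round spermatids elongate, from testis-specific relatives of actin (the Actl and Actrt proteins), from a testis-specific subunit of the actin capping protein (Capza3), and from the basic proteins cylicin (Cylc1 and Cylc2) and calicin (Ccin). ACTL7A and ACTL9 have been found in the layer under the acrosome, and mutations of several of these genes are known causes of malformed sperm heads or detached acrosomes in mice and men.

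The study sequenced RNA 3′ ends of single testis cells from adult mice labelled C57BL/6N, with 10x Genomics chemistry that counts molecules by unique molecular identifiers (UMIs). Wildtype replicate 1 and wildtype replicate 2 came from 1 mouse each, with genotype wildtype. The knockout library pooled the cells of 2 mice with genotype conditional Tex10 knockout, and since the labels name no Cre driver and no deleted exon, the cells in which Tex10 was deleted are not known. As there is 1 knockout library, no difference between the genotypes could be tested, and every comparison below is one of these libraries.

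The deposited libraries held 93418341, 96001773 and 147783171 UMIs in 9967, 10153 and 12918 barcodes, and any pair of libraries shared 27 to 30 barcodes. Clusters of low UMI content made up 56.2%, 42.1% and 65.0% of the kept cells and were left out of the cell classes. Here and below, values of the 3 libraries are in the order wildtype replicate 1, wildtype replicate 2, knockout library. Round spermatid-like cells numbered 580, 987 and 561 with a median of 28160, 22870 and 37880 UMIs. Elongating spermatid-like cells numbered 1412, 1900 and 1737 with a median of 12030, 9522 and 18170 UMIs, so the knockout library was the deepest per cell in both classes. Levels are given as counts per 1000000 UMIs of the same cells (CPM), and the intervals in parentheses are exact 95% Poisson intervals, which cover counting error only. Tex10 itself stood at 41.3 and 36.0 CPM in wildtype round spermatids and at 26.9 CPM in the knockout library, in the direction of the label. This difference is under 2-fold, so Tex10 does not meet the size rule used below.

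Spermatids were placed in order by their whole profile, with the 10 genes left out of the ordering, and divided into 8 bins from early to late of 215 to 464 cells per library. Bins 1 and 2 held only round spermatid-like cells, bin 3 held 27.2%, 46.6% and 25.5% of them in the 3 libraries, and bins 4 to 8 held only elongating spermatid-like cells. Known stage genes followed this order in all 3 libraries. Those given here were among the markers used to name spermatid clusters, and markers also set the direction of the order. They are therefore no independent check of it. Acrv1, an acrosomal matrix gene, was highest in bin 2 (567, 599 and 566 CPM), Tnp1, a transition protein gene, in bin 5 (38250, 40600 and 37520 CPM), and Tssk6, a late spermatid kinase gene, in bin 8 (5868, 4874 and 5370 CPM).

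The 10 genes lie on 5 chromosomes of GRCm38, and all are protein-coding. Those on chromosome 4 are Ccin from 43983483 to 43985423, Cylc2 from 51216678 to 51230272, Actl7b from 56740005 to 56741443, Actl7a from 56743413 to 56744925 and Actrt2 from 154666433 to 154667867. Actl9 lies on chromosome 17 from 33432896 to 33434268, Actrt3 on chromosome 3 from 30597073 to 30599939 and Capza3 on chromosome 6 from 140041252 to 140042778. On chromosome X are Actrt1 from 46329007 to 46330345 and Cylc1 from 111110418 to 111125854. Actl7a and Actl7b are neighbours on opposite strands, 1969 bases apart. Actl7a, Actl7b, Actl9, Actrt1, Actrt2, Capza3 and Ccin have their coding sequence in a single exon, whereas Actrt3 has 2 exons, Cylc2 has 5 and Cylc1 has 6. None of the last 500 transcript bases was shared with another gene, in words of 31 bases. However, 90.9% of the exon bases of Actl7b and 7.01% of those of Capza3 lie opposite exons of Gm26657 and Plcz1, and since the use of strand in counting is not given, Actl7b is reported as uncertain.

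The promoters are shown because several of the genes share a stage of highest level and because cAMP response elements are a known feature of spermatid promoters, bound there by CREM. The RefSeq promoter table (GRCm38.p6) held 8 of the 10 genes, without Capza3 and Cylc2. The full cAMP response element, TGACGTCA, was found on either strand in 1 of the 8 promoters, that of Ccin, against 1.79% of 32851 promoters of the same length (250 bases before to 50 after the start). Its shorter forms TGACGT and TGACG, which overlap it, were found in 1 and 2 of the 8, against 7.51% and 20.8% of all promoters, and TATAAA in 1 of the 8, against 13.6%. Reading the sequences then showed a related word, TGATGTCA, in 4 of the 8 promoters and in 3.62% of all. It was chosen after the sequences had been seen, so this count is a description. Below are the 150 bases before the start of Ccin, Actl7a, Actl7b, Actl9 and Cylc1, each on its own coding strand, with matches to any of these words in capitals.
Ccin: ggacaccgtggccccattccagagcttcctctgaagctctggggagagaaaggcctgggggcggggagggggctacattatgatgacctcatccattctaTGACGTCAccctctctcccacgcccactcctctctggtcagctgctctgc
Actl7a: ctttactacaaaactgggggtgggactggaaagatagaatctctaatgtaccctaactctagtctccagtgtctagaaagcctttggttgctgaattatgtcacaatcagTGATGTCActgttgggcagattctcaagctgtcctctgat
Actl7b: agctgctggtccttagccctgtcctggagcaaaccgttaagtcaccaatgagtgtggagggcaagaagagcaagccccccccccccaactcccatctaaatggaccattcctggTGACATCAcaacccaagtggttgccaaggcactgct
Actl9: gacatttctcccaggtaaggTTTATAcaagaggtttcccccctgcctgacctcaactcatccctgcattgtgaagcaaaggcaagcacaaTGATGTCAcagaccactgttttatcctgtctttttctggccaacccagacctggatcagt
Cylc1: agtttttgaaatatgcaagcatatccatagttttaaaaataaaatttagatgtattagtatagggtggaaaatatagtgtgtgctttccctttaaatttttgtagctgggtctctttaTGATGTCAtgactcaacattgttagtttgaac
The stretches are chr4:43983354-43983503 (plus strand), chr4:56743272-56743421 (plus strand), chr4:56741426-56741575 (minus strand), chr17:33432749-33432898 (plus strand) and chrX:111110268-111110417 (plus strand). The first base of the match lies 50 bases before the start in Ccin, 40 in Actl7a, 36 in Actl7b, 60 in Actl9 and 32 in Cylc1, and in Actl7b the word is read on the opposite strand. The other capitals in Actl9 mark TATAAA on the opposite strand, 130 bases before the start. A match of letters is no evidence that a factor binds there.

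Actl7b, an actin-like gene needed for shaping of the spermatid, was already at a high level in bin 1. Its level was 384, 365 and 400.1 CPM in bin 1, and 563, 482 and 546 CPM in bin 2. It was highest in bin 3, at 644 (625 to 664), 559 (542 to 577) and 563 CPM (551 to 576). In bin 4 only 84.9, 82.3 and 78.9 CPM were left, and bins 6 and 7 held 28.5 to 36.5 CPM in all libraries. The loss between bins 3 and 4 was therefore steep in every library, and the wildtype libraries differed from each other by more in bin 3 than the knockout library differed from replicate 2.

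Actl7a, its neighbour on the chromosome and the actin-like partner of ACTL9 under the acrosome, began lower and also was highest in bin 3. Bin 1 held 95.8, 115 and 133 CPM and bin 3 held 346 (332 to 360), 398 (384 to 413) and 375 CPM (365 to 386). From bin 4 on, the levels were 161, 160 and 141 CPM, then 91.9, 99.1 and 85.5 CPM in bin 5, and 151, 141 and 129 CPM in bin 8. The profile thus had a lowest point in bins 5 and 6 and a second, smaller height at the end, seen in all 3 libraries.

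Actl9, a further actin-like gene, was highest in a later bin than any other gene of the set on the CPM scale. With cells ordered by their protamine and transition protein share it was highest in bin 4 of all 3 libraries, and as UMIs per cell in bin 3. On the CPM scale and in the main order, it stood at 31.4, 32.7 and 32.1 CPM in bin 1 and at 368, 327 and 370 CPM in bin 3. Bin 4 was lower again, at 245, 206 and 229 CPM. Bin 8 had the highest levels, 521 (488 to 555), 420.5 (397 to 445) and 480 CPM (458 to 504). A dip in bin 4 between 2 heights was present in each library, and the knockout library lay between the wildtype libraries in bin 8.

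Actrt2, which codes for an actin-related protein of the perinuclear theca, was the most abundant of the 10 transcripts in elongating spermatids, counted as 3′ ends and therefore not divided by length. Its level was 40.1, 51.3 and 73.1 CPM in bin 1, 410.2, 353 and 412 CPM in bin 2, and 1400, 1204 and 1519 CPM in bin 3. It was highest in bin 5 of every library, at 2152 (2104 to 2200), 2002 (1959 to 2045) and 2423 CPM (2388 to 2458), and still held 650.2, 710 and 786 CPM in bin 8. The knockout library was the highest of the 3 in each of the 8 bins, although in bin 2 its interval overlapped that of replicate 1.

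Actrt1, the X-linked relative of Actrt2 whose protein is also found in the perinuclear theca, was sparse throughout. It held 11.4, 13.8 and 13.7 CPM in bin 1 and 57.5, 59.6 and 62.6 CPM in bin 4. Between bins 4 and 7 every library stayed between 55.0 and 69.9 CPM, a plateau on which the highest bin was 4, 6 and 4 in the order of the libraries. The counting intervals of these 4 bins overlapped within each library, so the place of the maximum of Actrt1 is not resolved. Even so, its log-scaled profile followed that of Actrt2 closely, with r = 0.96 in each library over the 8 bins.

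Actrt3, which codes for the actin-related protein known to pair with the testis profilin PFN3, had a short course that began after bin 2. Bins 1 and 2 held 1.70 to 3.73 CPM. The level was then 243 (231 to 255), 183 (173 to 193) and 268 CPM (259.6 to 277) in bin 3, and 226 (214 to 239), 230.5 (218 to 244) and 193 CPM (183 to 203) in bin 4. By bin 5 it was 42.9, 32.9 and 27.9 CPM. The knockout interval was above both wildtype intervals in bin 3, as for 9.73% of all tested genes, and below both in bin 4, as for 6.65%, and the wildtype libraries themselves differed in bin 3 by a log2 ratio of −0.41.

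Capza3, the testis alpha subunit of the dimer that caps the barbed end of actin filaments, covered a broader stretch. It stood at 123, 161 and 162 CPM in bin 1 and was highest in bin 4 of every library, at 575 (555 to 596), 596 (576 to 617) and 629 CPM (611 to 648). At the end 108, 131 and 141 CPM remained. Wildtype replicate 1 was the lowest of the 3 libraries in every bin for Capza3.

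The cylicins, basic filament-like proteins of the calyx, had similar courses (r = 0.91, 0.96 and 0.95 over the 8 bins), with more bins near the highest level for Cylc2. Cylc1 was highest in bin 4 of each library, at 249 (236 to 263), 288 (274 to 302) and 241 CPM (230.4 to 253), from 58.5, 73.5 and 78.1 CPM in bin 1, and dropped to 28.0, 31.5 and 21.9 CPM in bin 8. Cylc2 was flat from bin 2 to bin 4, where the libraries held 382 to 470 CPM, and the highest bin was 3, 2 and 4 in the order of the libraries. The late part of Cylc2 was higher in the knockout library, with 231 CPM (218 to 244) in bin 7 against 179 (163 to 196) and 187 CPM (172 to 202). An interval above both wildtype intervals was found for 8.5% of all tested genes in that bin.

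Ccin, the gene of calicin, a protein of the kelch family in the calyx, had the narrowest profile. Bin 1 held 5.29, 5.12 and 6.65 CPM and bin 2 held 90.7, 84.3 and 76.5 CPM. Bin 3 reached 426 (410.1 to 442), 401 (386 to 416) and 451 CPM (440.2 to 463), and bin 4 was back at 169, 151 and 137 CPM. Bin 3 was the only bin with at least 50% of the highest level of Ccin, in all 3 libraries, while the same span was 5 bins for Capza3 and 6 bins for Actrt1. Ccin was also the gene with the single full cAMP response element among the promoters shown, and a bearing of this element on the profile was not tested.

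**Figure D1:**
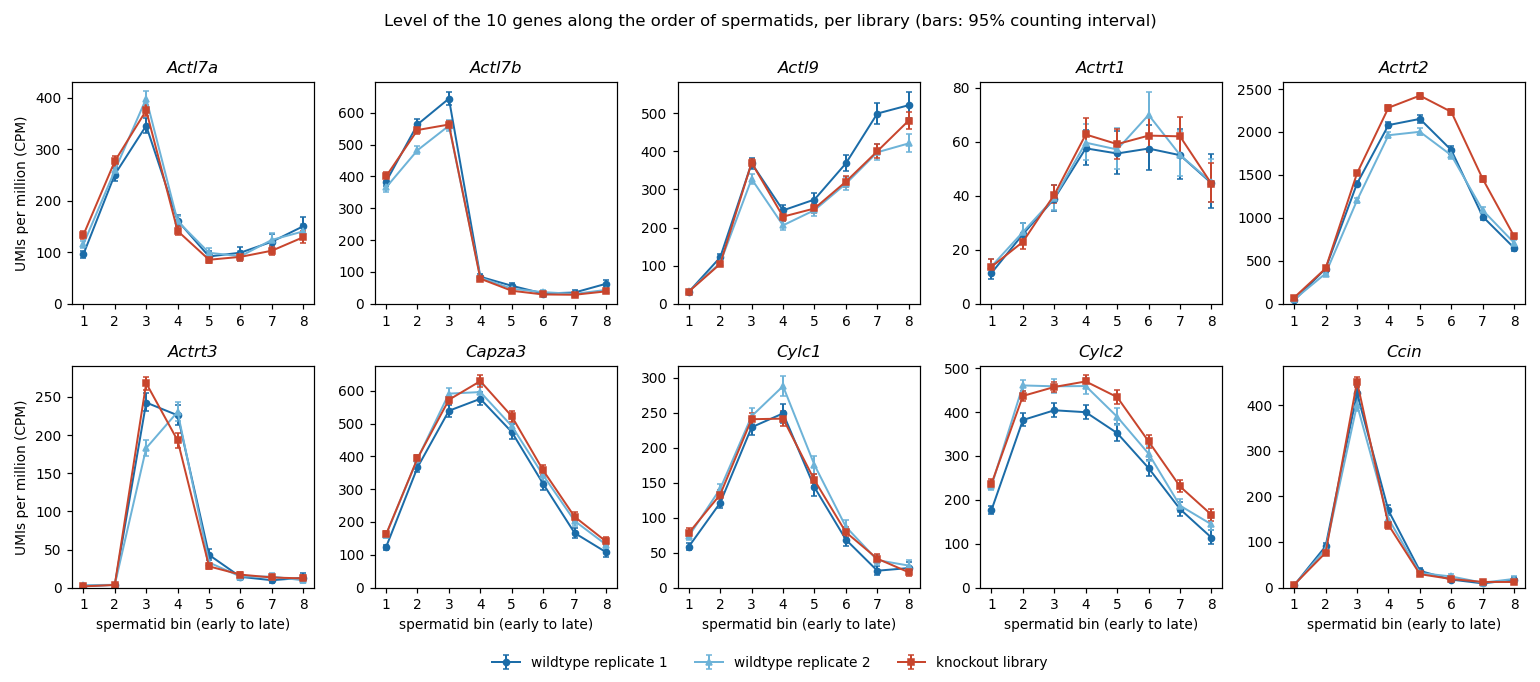
Level of each gene (CPM, vertical axis from 0, own scale per panel) in 8 bins of spermatids from early to late (horizontal axis), with points for the 3 libraries and bars for the exact 95% counting interval. The curves of the 3 libraries run close together in most panels, with the highest bin in different places for Actrt1, Actrt3 and Cylc2. They range from the bin 3 peak of Ccin (426, 401 and 451 CPM) to the bin 8 maximum of Actl9 (521, 420.5 and 480 CPM), and the knockout curve of Actrt2 lies on top, with 2423 CPM in bin 5.

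In the order of their highest wildtype level, Actl7a, Actl7b, Cylc2 and Ccin came first (bin 3), Actrt3, Capza3 and Cylc1 next (bin 4), then Actrt2 (bin 5), Actrt1 (bin 6) and Actl9 (bin 8). The highest bin was the same in all 3 libraries for 7 of the 10 genes, 1 bin apart for Actrt3, and 2 bins apart for Actrt1 and Cylc2. Neighbours in this order are not all separable: the wildtype libraries put Actrt3 in bin 3 and bin 4, and the plateaus of Cylc2 and Actrt1 overlap the bins of the genes beside them. From the lowest to the highest bin the log2 ratio was largest for Actrt3 (6.37, 5.77 and 6.64), Ccin (6.08, 6.04 and 5.89) and Actrt2 (5.71, 5.26 and 5.03), and smallest for Cylc2 (1.82, 1.67 and 1.49).

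The position of the late genes depends on the scale. The UMI content per cell was much smaller at the end of the order, with a median of 7500, 5891 and 10760 UMIs in bin 8 against 28170, 24820 and 41570 in bin 3. As UMIs per cell, Actl9 was highest in bin 3, at 10.4, 8.0 and 16.2, and held 4.40, 2.95 and 5.79 in bin 8. Actrt2 changed from 39.7, 29.5 and 66.5 UMIs per cell in bin 3 to 5.50, 4.98 and 9.48 in bin 8. Actl7a held 1.38, 1.29 and 2.01 UMIs per cell in bin 5 and 1.27, 0.988 and 1.56 in bin 8, so its second height exists as a share of UMIs and not per cell. On the scale of UMIs per cell no gene of the set had its highest wildtype level in bins 5 to 8, where CPM placed 3 of them (Actrt1, Actrt2 and Actl9). In bins 4 to 8 the protamine transcripts take up a large share of UMIs, but leaving protamine and transition protein UMIs out of the total left Actl9 highest in bin 8 and Actrt2 in bin 5 in each library.

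**Figure D2:**
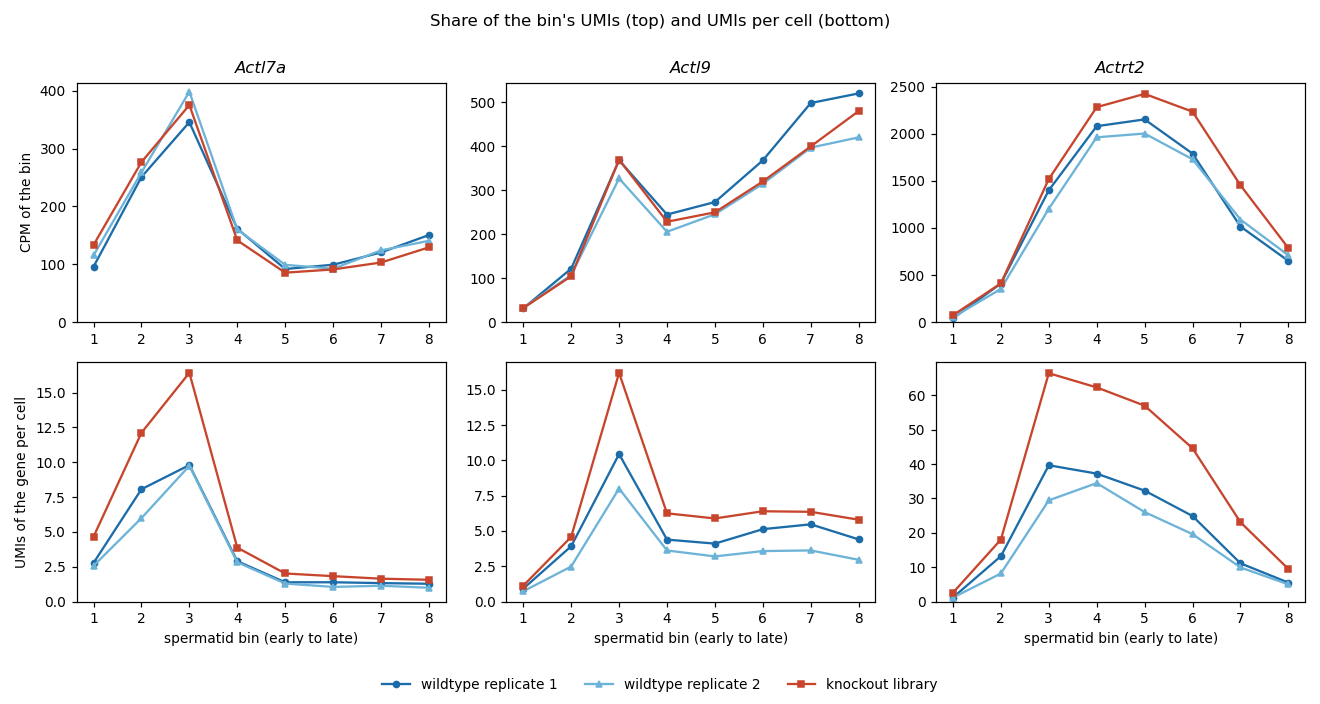
Actl7a, Actl9 and Actrt2 in the 8 spermatid bins (horizontal axis) as CPM of the bin (top row) and as UMIs of the gene per cell (bottom row), with a line for each library and all axes from 0. The late height of Actl9 (521 CPM in bin 8 of wildtype replicate 1) is present in the top row, while the bottom row has its maximum in bin 3 (10.4 UMIs per cell). The knockout library, which is deeper, is higher per cell for all 3 genes, and the part of depth in this was not tested.

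In late spermatocytes Actl7b and Actl9 were the genes of the set with a level above that in spermatogonia in all 3 libraries. Actl7b held 111, 102 and 112 CPM there and Actl9 50.7, 42.9 and 52.6 CPM, on 241, 230 and 266 cells. The 8 other genes held between 0.290 and 14.3 CPM. Spermatogonia, which should lack these transcripts, carried 41.3 to 53.8 CPM of Actl7b and 50.9 to 57.2 CPM of Actrt2, and peritubular myoid cells carried 85.6 to 125 CPM of Actl7b and 67.1 to 103 CPM of Actrt2. There were 1.03, 0.927 and 0.721 UMIs of Actl7b for each UMI of Actrt2 in spermatogonia, and 10.5, 7.12 and 10.8 in late spermatocytes. In peritubular myoid cells the same ratio was 1.87, 1.16 and 0.828. The part of free RNA in these levels was not tested. Late spermatocytes had a median of 78680, 61430 and 102200 UMIs per cell, against 11100, 8429 and 14630 in spermatogonia.

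**Figure D3:**
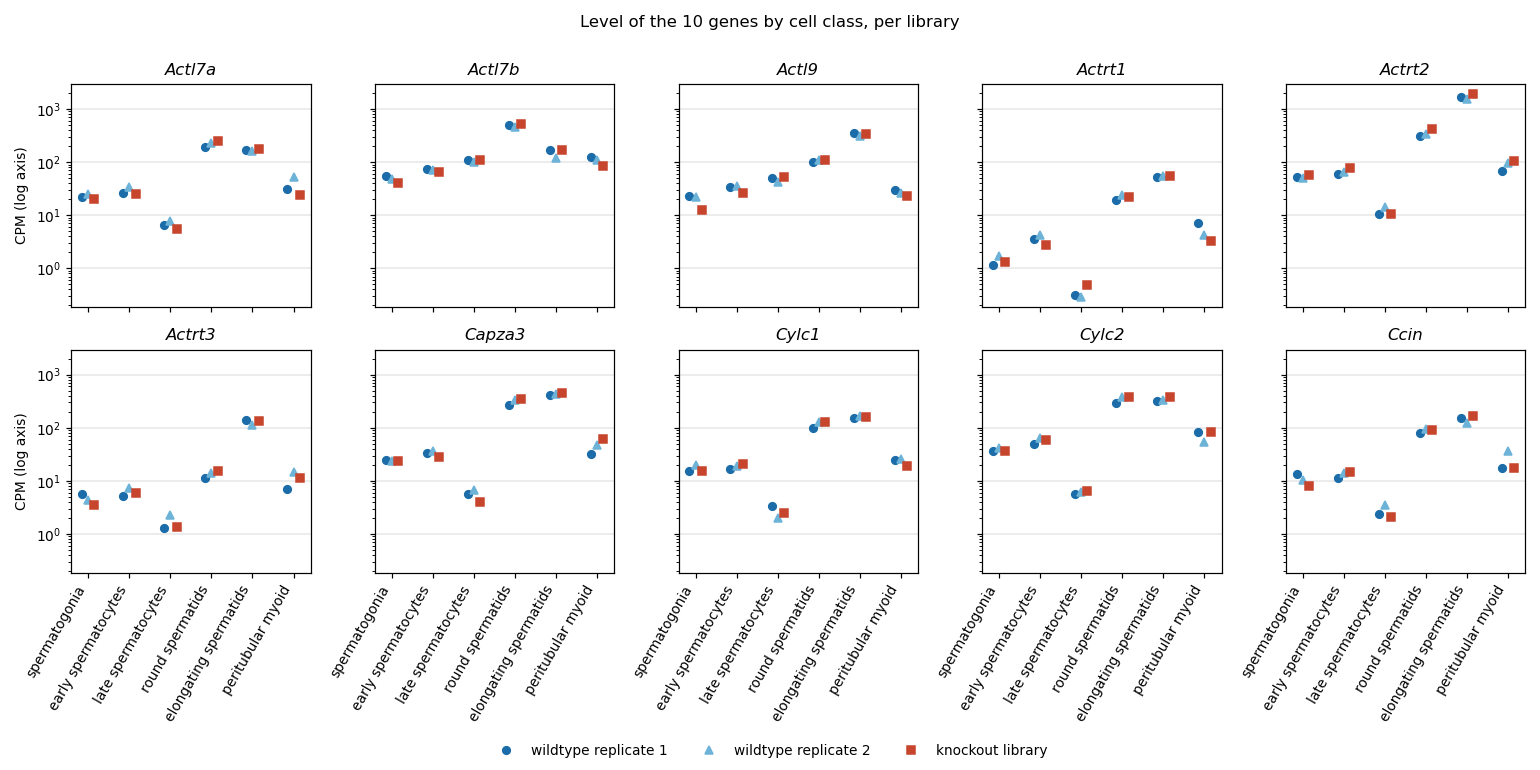
Level of each gene (CPM, log axis) in 5 germ cell classes and in peritubular myoid cells (horizontal axis), with 1 point for each library. Round or elongating spermatids are highest for every gene. In late spermatocytes Actl7b (111, 102 and 112 CPM) and Actl9 (50.7, 42.9 and 52.6 CPM) lie above their levels in spermatogonia, and Actl7b lies in the range of myoid cells. Spermatogonia and myoid cells, which should lack these transcripts, are shown for comparison.

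The share of cells with at least 1 UMI was compared after each cell had been thinned to 2000 UMIs, because depth differs between libraries and classes. Actrt2 was seen in 79.2%, 76.2% and 81.9% of elongating spermatids, against 11.8%, 8.28% and 12.3% of spermatogonia and 14.9%, 25.0% and 19.8% of myoid cells. Actl7b was seen in 61.5%, 60.8% and 62.2% of round spermatids and in 16.3%, 12.9% and 16.7% of elongating spermatids. The latter shares lie close to those in spermatogonia (13.6%, 10.9% and 11.1%). Actl9 had the opposite order, with 13.4%, 19.3% and 17.5% in round and 51.2%, 46.7% and 50.1% in elongating spermatids. In late spermatocytes Actl7b was seen in 20%, 15.35% and 17.05% of cells, much as in myoid cells (23.4%, 17.05% and 11.63%). Actl9 was seen in 10%, 9.21% and 11.0% of late spermatocytes, against 4.26%, 3.41% and 4.65% of myoid cells. Thinning left out 6, 7 and 0 round and 26, 43 and 9 elongating spermatids as too shallow.

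Among the 10 genes, none differed between the knockout and the wildtype libraries by the size rule used for all genes. The rule asks for at least a 2-fold difference in CPM from each wildtype library, in the same direction, and for a ratio 2 times as large as that seen within the wildtype pair, on the log2 scale. It was met by 0 of 9 genes with enough UMIs in round spermatids, where 0.455% of all tested genes were higher and 0.648% lower. In elongating spermatids it was met by 0 of 10, beside 0.675% higher and 0.478% lower among all tested genes, and in late spermatocytes by 0 of 2, beside 0.349% and 0.441%. In the 8 bins it was met by none of the 10 either, while 1.05% of the genes tested in any bin were higher and 1.28% lower in at least 1 of them. Beside background shares this low, a count of 0 among 10 genes is no result about them, and it does not show that the levels were equal.

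The median log2 ratio of the 10 genes, knockout over the wildtype mean, was 0.16 in round spermatids, where the median of all genes was −0.01. It was 0.12 in elongating spermatids beside 0.11 for all genes. In round spermatids 9 of the 10 ratios were above 0, but wildtype replicate 1 was the lowest library for most of the genes. The median was 0.34 against replicate 1 alone and 0.04 against replicate 2 alone. When the spermatid bins were given equal weight in each library, the medians became 0.06 and −0.02.

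**Figure D4:**
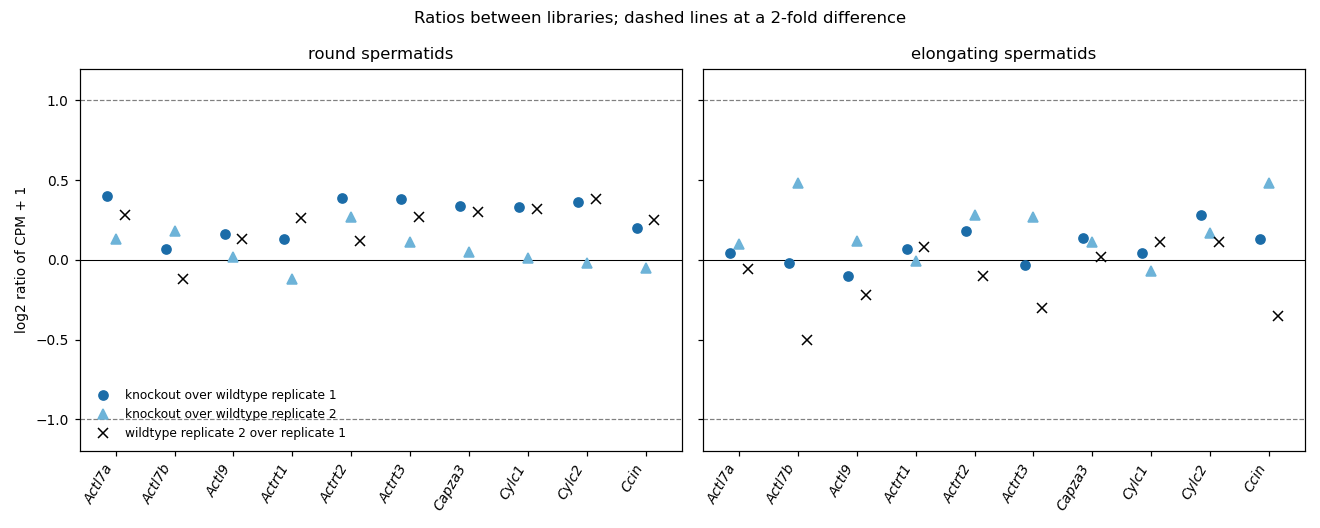
Log2 ratios of CPM + 1 for each gene in round (left) and elongating (right) spermatids, with the knockout library over each wildtype library and the wildtype libraries over each other, and dashed lines at a 2-fold difference. All points lie within the dashed lines, and the black crosses, the spread between the wildtype libraries, reach 0.38 for Cylc2 in round and −0.50 for Actl7b in elongating spermatids.

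Counting intervals do not hold the differences between mice, and they were used only to describe. They narrow as counts rise, and the tested genes include ones near 20 CPM. The shares of all tested genes are therefore no like background for more abundant genes. In round spermatids the knockout interval lay above both wildtype intervals for 3 of 9 genes (Actl7a, Actl7b and Actrt2), which also held for 14.4% of all tested genes, and below both for none, against 13.2%. In elongating spermatids it lay above both for 4 of 10 genes (Actrt2, Capza3, Cylc2 and Ccin), against 30.6% of all tested genes, and below both for none, against 9.59%. The count above both in elongating spermatids is thus near the 30.6% of all tested genes. Taken bin by bin, the knockout interval lay above both in 7 of 8 bins for Actrt2, 2 for Cylc2 and 1 for Actl7a. For Actl7b, Capza3 and Ccin it did so in 0 of 8 bins. Among 6 classes, Actl9 in spermatogonia was the single case below both, where 2% of tested genes were, at 12.8 CPM against 23.1 and 22.4 CPM, in a class that should lack this transcript.

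Actrt2 had its knockout interval above both wildtype intervals in more bins than any other gene of the set. In round spermatids it held 316 (308 to 324), 344 (336 to 351) and 416 CPM (407 to 424), and the knockout log2 ratios were 0.39 and 0.27, against 0.12 between the wildtype libraries. The wildtype mean was 329.8 ± 19.7 CPM (SD, n = 2). In elongating spermatids it held 1690, 1577 and 1911 CPM, with log2 ratios of 0.18 and 0.28 against −0.10, beside a wildtype mean of 1633 ± 80.4 CPM (SD, n = 2). By bin the ratio to the wildtype mean was 0.67 in bin 1, 0.11 in bin 2, 0.22 in bin 3, 0.17 in bin 4, 0.22 in bin 5, 0.34 in bin 6, 0.47 in bin 7 and 0.21 in bin 8. The largest ratio, in bin 1, rests on 40.1, 51.3 and 73.1 CPM. These levels are near those given above for spermatogonia and myoid cells, which should lack this transcript, and the part of free RNA was not tested. The knockout interval lay above both wildtype intervals in 7 of the 8 bins, as it did in at least 7 bins for 2.7% of the 1964 genes that had enough UMIs in every bin. Counting intervals narrow as counts rise, and the 1964 genes include ones near 20 CPM, far sparser than Actrt2 in most bins. That share is therefore no like background. The pattern of Actrt2 was noticed in the data and stays under the 2-fold limit in each bin, at 108% to 160.0% of the wildtype mean. Its size depended on the weighting: with equal weight of bins the log2 ratio in round spermatids was 0.11, and with libraries scaled by the median of gene ratios that in elongating spermatids was 0.12.

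**Figure D5:**
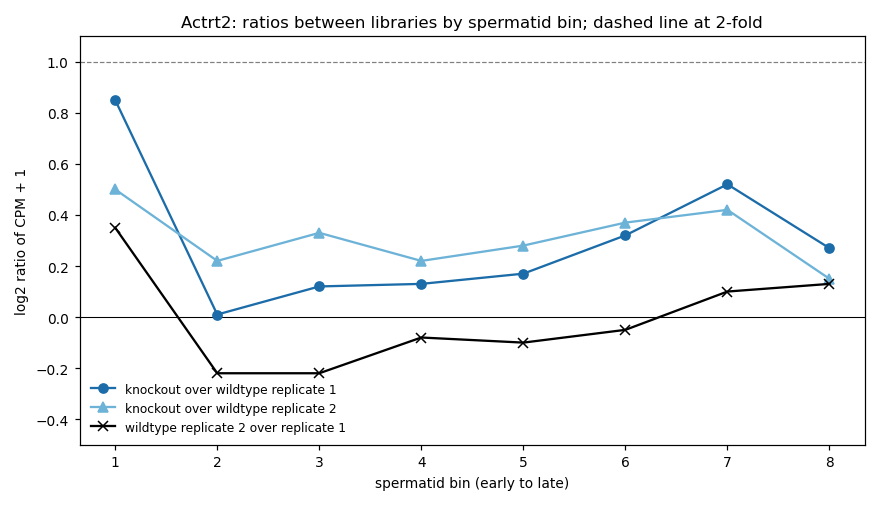
Log2 ratios of CPM + 1 for Actrt2 in the 8 spermatid bins (horizontal axis), knockout over each wildtype library (coloured lines) and wildtype replicate 2 over replicate 1 (black line), with a dashed line at 2-fold. The coloured lines stay above 0 in every bin, highest in bin 1 (0.85 and 0.50) and in bin 7 (0.52 and 0.42), and the black line lies between −0.22 and 0.35. In bin 1 the levels (40.1, 51.3 and 73.1 CPM) are near those of spermatogonia and myoid cells, which should lack this transcript.

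The differences of 5 other genes are given here, for Actl7a, Cylc2 and Ccin with those between the wildtype libraries. Actl7a in round spermatids held 189, 229 and 250.4 CPM, with log2 ratios of 0.40 and 0.13 against 0.28 between the wildtype libraries, and the ratio to the wildtype mean went from 0.26 to 0.13 with equal weight of bins. Cylc2 in elongating spermatids held 315, 339 and 382 CPM, with log2 ratios of 0.28 and 0.17 against 0.11 between the wildtype libraries, and its knockout interval was above both in 2 of 8 bins. Capza3 held 418, 425 and 460 CPM there, with ratios of 0.14 and 0.11. The ratio to the wildtype mean in elongating spermatids was 0.12 for Capza3 and 0.22 for Cylc2, beside a median of 0.11 for all genes. With libraries scaled by the median of gene ratios it was 0.01 for Capza3 and 0.11 for Cylc2. Ccin held 154, 121 and 169 CPM, where the wildtype libraries differed by more (−0.35) than the knockout library from replicate 1 (0.13). For Actl7b the ratio was −0.02 to replicate 1 and 0.48 to replicate 2. With equal weight of bins, the ratio to the wildtype mean in elongating spermatids went from 0.20 to −0.15 for Actl7b and from 0.29 to −0.01 for Ccin. Actl7a and Actl7b were below both wildtype libraries in each of bins 4 to 8, with intervals that overlapped a wildtype interval in every bin. They were 2 of the 8 genes of the set with enough UMIs in those bins, and 10.6% of all such genes had levels in this order. In bins 5 to 8 the level of Actl7b was near or below that given above for spermatogonia, which should lack this transcript. Ccin and Actl7b are genes whose level changes steeply between bins 3 and 4, and the share of round spermatids in bin 3 differed between the libraries, as given above. Whether the place of cells within a bin bears on these values was not tested. Over the 8 bins, 7 of the 10 genes were above both wildtype libraries in 1 bin and below both in another. This also held for 34.7% of all genes tested in at least 2 bins. Among genes tested in all 8 bins it held for 4 of 7 of the set and for 49.4% of all genes.

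Chromosome 4 holds both Tex10 and 5 of the 10 genes, with Cylc2 at 2.77, Ccin at 4.47, Actl7b at 8.29 and Actl7a at 8.29 megabases from Tex10 and Actrt2 at 106 megabases. Within 10 megabases of Tex10 the size rule was met by 1 of 65 tested genes in round spermatids (1.54%), which was Gm13306, lower at 12.1 CPM against 40.0 and 38.5 CPM. In elongating spermatids it was met by 1 of 37 (2.70%), which was Gm26881, higher at 23.8 CPM against 8.56 and 9.08 CPM. In the rest of chromosome 4, where Actrt2 lies, 5.31% of tested genes in round and 7.29% in elongating spermatids met the rule, against 0.845% and 0.781% on the other chromosomes. The labels give one strain for all mice, and the part of the chromosome in the ratio of Actrt2 was not tested.

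Other genes of the perinuclear theca and of acrosome anchoring were taken as a second list of 16, of which 15 were among the counted genes. None of the 14 tested in round or of the 14 tested in elongating spermatids met the size rule, and the median log2 ratios were 0.02 and 0.13. The most abundant were Fabp9, a fatty acid binding protein gene of the theca (5084, 5030 and 4730 CPM in round spermatids), Fam209 (1066, 1156 and 1296 CPM) and Spata46 (1015, 1102 and 1226 CPM), whose proteins are found at the nuclear envelope near the acrosome. Fam209 and Spata46 were highest in bins 2 and 3, as Ccin and Actl7a were in bin 3, with 1680, 1752 and 1546 CPM of Fam209 in bin 3 and 68.4, 61.1 and 53.8 CPM in bin 4. Fabp9 was highest late, at 9104 and 8547 CPM in bin 7 of wildtype replicates 1 and 2. Plcz1, the sperm factor gene whose protein sits in the theca, held 89.1, 103 and 91.9 CPM in bin 2 and 137, 151 and 138 CPM in bin 8. Pfn3, the profilin gene paired with Actrt3, was highest in bin 3 (866, 924 and 783 CPM), but unlike Actrt3 it already held 613, 614 and 614 CPM in bin 2.

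General actin, actin-related and capping genes formed another list of 16, and none of the 12 tested in round and 8 tested in elongating spermatids met the size rule. Their medians were −0.05 and 0.14. Actb, the beta actin gene, held 241, 268 and 281 CPM in round and 890, 828 and 935 CPM in elongating spermatids, with its highest level in bin 4 (1287, 1246 and 1347 CPM), while Actg1, the gamma actin gene, held 883, 727 and 753 CPM in bin 1 and 53.1, 51.7 and 53.4 CPM in bin 4. The capping protein subunits diverged in the same way. Capzb, which codes for the beta subunit that pairs with any alpha subunit, stood at 150.1, 154 and 150.3 CPM in round and at 570.2, 563 and 547 CPM in elongating spermatids. The somatic alpha subunit genes Capza1 (126, 91.5 and 99.0 CPM in round, 25.6, 21.6 and 26.7 CPM in elongating spermatids) and Capza2 (32.1, 26.7 and 26.5, then 8.79, 9.08 and 8.87 CPM) were lower in elongating spermatids, where Capza3 held 418, 425 and 460 CPM. Actr10, a dynactin subunit gene, held 757, 742 and 786 CPM in round and 301, 263 and 315 CPM in elongating spermatids.

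In all, 6527 genes, the 10 included, reached at least 20 CPM in 1 or more bins of each library. The profiles of the 10 genes over the 8 bins were compared with one another and with the others by Pearson's r of log2(CPM + 1). This is a description over 8 points of the same cells, and many genes of spermatids have similar courses. Within the set, Capza3 and Cylc2 (0.96, 0.94 and 0.96), Cylc1 and Cylc2 (0.91, 0.96 and 0.95) and Actl9 and Actrt1 (0.90, 0.87 and 0.87) were also alike, while Actl7b ran against Actrt1 (−0.71, −0.75 and −0.77). Ranked by the lowest r of the 3 libraries, the gene most like Actl7b was Tmem190 (0.993), and Tssk4, a spermatid kinase gene, was among its first 3 (0.991). The first for Actl7a was Tex43 (0.950), for Actl9 Irgc1 (0.990), for Actrt1 1700003E24Rik (0.994), for Actrt2 4930592I03Rik (0.992) and for Actrt3 Fhdc1 (0.985). Capza3 was most like Chchd3 (0.990), Cylc2 most like Gm40155 (0.984) and Ccin most like 1700008N11Rik (0.985). Cylc1 was most like Spag4 (0.987), a gene of the nuclear envelope, and Hils1 (0.984), a spermatid linker histone gene; both were among the markers used to name spermatid clusters.

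A low-UMI cluster with late spermatid markers, of 269, 324 and 394 cells, was kept out of the classes because its median was 2467, 2168 and 2820 UMIs. It held 179, 141 and 210 CPM of Actrt2 and 92.2, 99.4 and 91.9 CPM of Actl9. These are below the levels of bin 8 and below those of the cluster taken as a reference for free RNA (371, 282 and 382 CPM of Actrt2, 126, 106 and 111 CPM of Actl9). For Actl7a it held 159, 158 and 130.0 CPM, above the 136, 91.4 and 92.5 CPM of that reference.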

How the data were processed

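UMI counts per gene and cell barcode were deposited by the authors for 3 libraries; the file headers name Cell Ranger 4.0.0, and Seurat 4.0.5 and build mm10 appear in the submitters' processing notes. Strand use in counting is not given in the sources used here. Barcodes with at least 1000 UMIs, 500 genes and at most 10% mitochondrial UMIs were kept. Scrublet's automatic calls marked 0, 1 and 0 barcodes, so the top 8% of its scores were left out. Clustering used 2000 variable genes without the 10 genes and both further lists, 30 principal components and Leiden at resolution 1 (leidenalg 0.10.2 and igraph 0.11.9 within scanpy 1.11.5). A cluster took its name from the markers, fixed by class, that exceeded their level in the largest low-UMI cluster, led by haemoglobin genes and taken as a reference for free RNA. Class names therefore mean marker-defined, spermatid-like groups, and clusters with a median UMI total under 3 times the lowest total of the library were kept out. This naming rule was set after the clusters had been seen.

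Spermatids were ordered by the first diffusion component over 30 neighbours, in place of the diffusion pseudotime that had been planned, which folded the order. Bin edges were the mean over libraries of each library's own octiles. UMIs were summed per library and class or bin and divided by the total to give CPM, and ratios are log2(CPM + 1). Because the knockout arm has 1 library, no test was run and no p-value is given. The size rule also asked for 20 CPM in at least 1 library. Medians used genes with at least 5 CPM. The genes named are the 10 genes, Tex10, for each gene those with the highest of the lowest r, the 3 most abundant of each list and those called near Tex10; Plcz1, Pfn3, Actg1, Capza1 and Capza2 were added after their values had been seen. The members and lists were chosen with earlier results of these data known. Coordinates are from GENCODE M21 on GRCm38, which matched 32235 of 32285 gene IDs. Depth per library and class, which sets the counting intervals (scipy 1.17.1), is given in the results. Alternatives were the threshold, the CPM minimum, pseudocount, scaling, cell depth, doublets, bin number and order, and leaving out each wildtype library.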

Additional observations from a re-analysis of the deposited data

Results flagged for a closer look

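For 7 of the 10 genes the knockout library was above both wildtype libraries in at least 1 spermatid bin and below both in another, among bins with at least 20 CPM in 1 library, as did 34.7% of all genes tested in at least 2 bins. Among genes tested in all 8 bins, 4 of 7 of the set and 49.4% of all genes had such bins. These opposite directions were not tested, and no gene passed the size rule in either bin. The log2 ratio to the wildtype mean differed by 0.79 for Cylc1 (0.37 in bin 7 and −0.42 in bin 8), on 41.4 and 21.9 CPM in the knockout library. For Actrt3 the difference was 0.76 (0.33 in bin 3 and −0.43 in bin 5), for Actl7a 0.57 (0.33 in bin 1 and −0.24 in bin 7) and for Actl7b 0.54 (0.10 in bin 1 and −0.44 in bin 8). In bin 8 Actl7b held 62.9, 43.6 and 39.1 CPM, near its level in spermatogonia, and the wildtype libraries differed there by a log2 ratio of −0.52. Actrt1 and Ccin each gave 0.35, Actrt1 with 0.17 in bin 7 and −0.18 in bin 2, and Ccin with 0.13 in bin 3 and −0.22 in bin 4. Actl9 gave 0.22, with 0.09 in bin 3 and −0.13 in bin 2. Actl7a and Actl7b were below both wildtype libraries in each of bins 4 to 8, which is 5 bins, as were 10.6% of all genes tested in those bins. Actrt2, Capza3 and Cylc2 had no bin below both.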

How the results depend on the processing

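No paired analysis was possible because the knockout arm has 1 library and shares fewer than 2 replicate numbers with the wildtype arm. In round spermatids, elongating spermatids and late spermatocytes the count of genes of the set past the size rule was 0 in every alternative run, including a 1.5-fold threshold. For elongating spermatids alone, adding the low-UMI cluster of late spermatids, chosen after seeing the data, also gave 0. The median log2 ratio in elongating spermatids, 0.12, moved to 0.01 when libraries were scaled by the median of gene ratios, which moved the median of all genes from 0.11 to 0.01. It moved to −0.02 with equal weight of spermatid bins. Without each wildtype library it lay between 0.05 and 0.15 there and between 0.04 and 0.34 in round spermatids. The number of genes highest in the later 4 of 8 bins was 3 in the main order and 0 as UMIs per cell without scaling. Ordering cells by their protamine and transition protein share left it at 3, although Actl9 was then highest in bin 4 and Actrt2 in bin 8. Of 140 recomputed ratios of single genes, 126 moved by less than the spread between the wildtype libraries. The 140 include ratios to a single wildtype library, which could hardly move by more, as the spread comes from the same pair. Limits: 1 knockout library of 2 pooled mice, 2 wildtype mice, rebuilt classes, transcripts of spermatids counted in every class, and a deeper knockout library, so that small ratios cannot be told from differences between mice.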
